A study of Mus musculus with 15 samples.

Results

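The mRNA levels of 10 genes were followed across lung metastases grown under 4 methionine diets: 3 of the kinases that phosphorylate eIF2alpha, the 2 regulatory subunits of the phosphatase that reverses it, 2 sestrins and the 3 subunits of GATOR1. They are Eif2ak1 (ENSMUSG00000029613), Eif2ak3 (ENSMUSG00000031668), Eif2ak4 (ENSMUSG00000005102), Ppp1r15a (ENSMUSG00000040435), Ppp1r15b (ENSMUSG00000046062), Sesn1 (ENSMUSG00000038332), Sesn3 (ENSMUSG00000032009), Depdc5 (ENSMUSG00000037426), Nprl2 (ENSMUSG00000010057) and Nprl3 (ENSMUSG00000020289). They were taken by name for their function, and each symbol was matched to 1 of the 37620 gene IDs in the deposited files. All 10 were among the 16001 genes that passed the filter on low counts.

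Cells meet a shortage of an amino acid with 2 linked responses. In the first, a kinase phosphorylates the translation factor eIF2alpha, which slows most protein synthesis while the mRNA of the transcription factor ATF4 is translated more, and phosphatase subunits bring protein phosphatase 1 to eIF2alpha to end the response. Eif2ak4 encodes GCN2, the kinase activated by uncharged tRNA, Eif2ak3 encodes PERK, the kinase of endoplasmic reticulum stress, and Eif2ak1 encodes HRI, the kinase of heme shortage and of mitochondrial stress. In the second, GATOR1 keeps the growth kinase complex mTORC1 off the lysosome by acting on the Rag GTPases, and sestrins hold back GATOR2, the inhibitor of GATOR1, when leucine is short. Methionine reaches the same switch through its product S-adenosylmethionine and the sensor Samtor. These steps act largely on proteins and their phosphorylation, which mRNA levels do not show.

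Promoter sequences of 3 genes are shown because the libraries of these members did not overlap between diets in 2 pairwise comparisons each. Each is the 250 bases before the RefSeq transcription start, 5′ to 3′ on the strand of the gene, in build GRCm38.p6, and the capitals mark the motif matches found. The windows are chr7:45526269-45526518 on the minus strand for Ppp1r15a, chr9:107541959-107542208 on the plus strand for Nprl2 and chr9:14276051-14276300 on the plus strand for Sesn3.
Ppp1r15a: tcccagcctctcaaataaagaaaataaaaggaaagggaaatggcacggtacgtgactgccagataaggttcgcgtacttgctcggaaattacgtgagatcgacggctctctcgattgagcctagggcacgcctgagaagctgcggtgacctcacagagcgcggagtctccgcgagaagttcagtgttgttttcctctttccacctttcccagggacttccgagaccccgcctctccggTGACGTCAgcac
Nprl2: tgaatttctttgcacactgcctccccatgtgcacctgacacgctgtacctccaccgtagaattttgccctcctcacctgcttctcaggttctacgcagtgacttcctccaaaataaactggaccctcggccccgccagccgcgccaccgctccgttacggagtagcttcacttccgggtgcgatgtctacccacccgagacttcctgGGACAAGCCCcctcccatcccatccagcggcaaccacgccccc
Sesn3: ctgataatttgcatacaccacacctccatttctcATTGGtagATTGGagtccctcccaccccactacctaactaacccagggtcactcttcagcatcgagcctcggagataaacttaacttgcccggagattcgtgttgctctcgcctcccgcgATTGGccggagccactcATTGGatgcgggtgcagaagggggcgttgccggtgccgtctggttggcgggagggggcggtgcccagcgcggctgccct

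RefSeq gave 11 such windows for 9 members, with 2 starts each for Eif2ak4 and Sesn1. Motifs were searched on both strands. The capitals in the Ppp1r15a window are the CRE, TGACGTCA, 12 to 5 bases before the start. That motif stood in 1 of the 11 windows and in 1.55% of all 32851 promoter windows. The capitals in the Nprl2 window are a match to the p53 decamer motif, 43 to 34 bases before the start. This match was also found in the window of the second Sesn1 start, which makes 2 of 11 windows against 7.13% of all. The bases just after the Nprl2 start were not found in a GENCODE transcript of that gene, so positions there rest on RefSeq alone. The capitals in the Sesn3 window are 4 copies of the CCAAT box, CCAAT, read on the other strand. The CCAAT box occurred in 5 of 11 windows and in 33.8% of all, and the Eif2ak3 window held 6 copies. The CARE of ATF4 and C/EBP proteins, TGATGNAA, the E-box, CACGTG, and the FoxO motif, GTAAACA, had 0 matches in the 11 windows, against 3.45%, 6.02% and 3.17% of all windows. A match describes letters only and does not show binding.

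The tumours came from B16-F10.1, a pigmented mouse melanoma line that seeds the lung from the blood. Per the labels, male C57BL/6J mice of 8 weeks received 100000 cells through a tail vein, lived 21 days and then spent 2 weeks on a diet that was methionine adequate (3 libraries), supplemented to 300% (6 libraries), restricted to 25% (3 libraries) or deficient with 0% (3 libraries). All groups thus carry the same tumour line, and the labels do not say that each library is a separate mouse, and p-values then speak only of the variation among these libraries, some of which may be technical. The question the design puts to these genes is whether their mRNA levels followed dietary methionine.

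Total expected counts ran from 13107679 to 29994264 per library, and the members were read 78 to 3317 times per library, lowest for Sesn1 and highest for Ppp1r15b. All 10 melanocyte markers looked for were measured, with summed levels of 14432 to 28422 CPM (read counts scaled to the library size with TMM factors). The 10 alveolar type 2 markers, of lung epithelium, summed to between 110 and 6610 CPM. Libraries stood apart in 3 cases: protein-coding genes took 49.1% of the counts in adequate replicate 1 and 67.7 to 82.5% elsewhere, skeletal muscle markers summed to 1254 CPM in supplemented replicate 5 and at most 8.73 CPM elsewhere, and deficient replicate 3 held the most alveolar type 2 RNA. Results were therefore also computed without these 3. Each library mixes tumour and host cells, so fewer cells of a type and less RNA per cell cannot be told apart.

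Ppp1r15a and Ppp1r15b, the phosphatase subunits, were the most abundant members per transcript length. The deposited TPM, which is per length, had a median over the 15 libraries of 17.6 for Ppp1r15a, the subunit induced by stress, and 10.7 for Ppp1r15b, the constitutive one. Ppp1r15a was above Ppp1r15b in 14 of 15 libraries and Ppp1r15b above Eif2ak1 in all 15. The median TPM of Eif2ak1 was 7.98, of Eif2ak3 6.30 and of Eif2ak4 2.15, so GCN2 had the least mRNA of the 3 kinases. Sesn3 had a median of 6.05 TPM and Sesn1 of 1.48, the lowest of all 10.

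Among GATOR1 subunits the median TPM was 6.04 for Nprl3, 3.78 for Nprl2 and 3.76 for Depdc5, although the complex holds 1 copy of each. Nprl3 exceeded Nprl2 in all 15 libraries, while Nprl2 exceeded Depdc5 in 8 of 15, so the order of that pair is not set. The neighbours Eif2ak3 and Sesn3 (9 of 15) and Sesn3 and Nprl3 (6 of 15) could not be ordered either. Eif2ak1 was above Eif2ak3, and Eif2ak4 above Sesn1, in 11 of 15 libraries each, and Depdc5 was above Eif2ak4 in all 15. TPM was lowest in adequate replicate 1 for all 10 members, the library with the lowest protein-coding share. TPM is therefore read here only between genes of the same library.

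**Figure D1:**
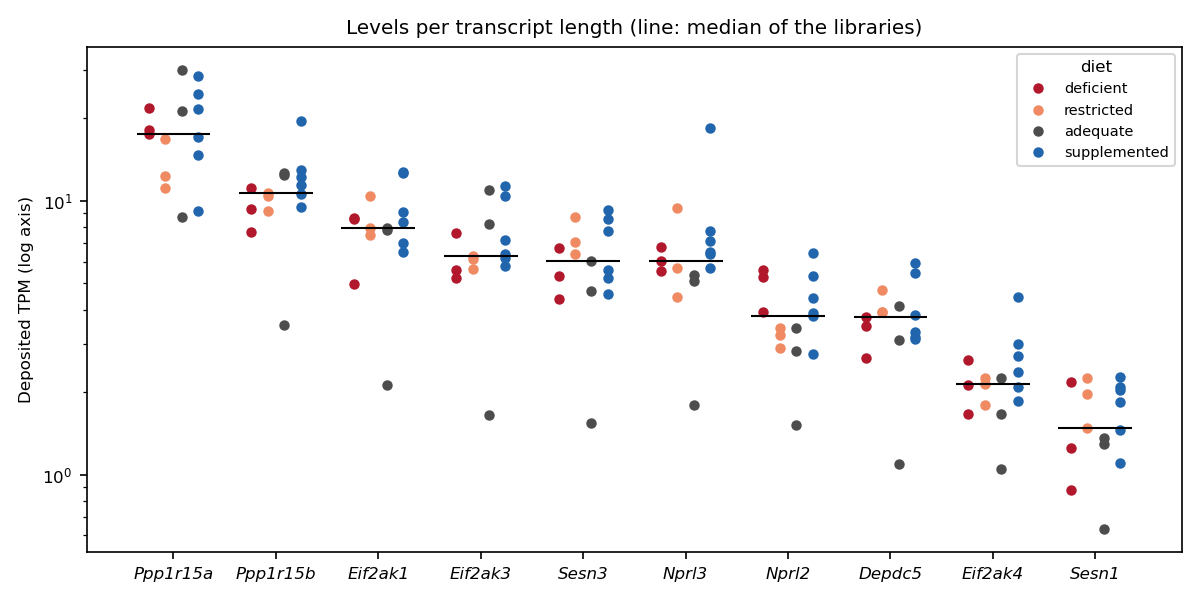
Deposited TPM of each listed gene in each of the 15 libraries, coloured by diet, on a log axis, with genes ordered by their median. Ppp1r15a leads with a median of 17.6 and Sesn1 is last with 1.48, while neighbours such as Sesn3 and Nprl3 overlap.

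No member passed the test between any pair of diets. In edgeR's quasi-likelihood test, with Benjamini-Hochberg adjustment over 16001 genes, 0 of 10 members had an adjusted p under 0.05 in any of the 6 pairwise comparisons, in the test of any difference, or in the trend along the methionine rank. The genome-wide share was as low: 0.00625% of all genes in deficient minus adequate and in the test of any difference, and 0% in the other 6 tests. DESeq2 and limma-voom also called 0 of 10 members in each of these tests. DESeq2 called 588 of the 16001 genes in deficient minus adequate where edgeR called 1.

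Of 60 pairwise estimates for the members, 3 had an unadjusted p under 0.05, and the log2 fold changes ran from -0.74 to 0.65. The 95% interval lay within a 2-fold change either way for 52 of the 60, including all 6 comparisons of each of Eif2ak1, Eif2ak3, Eif2ak4, Ppp1r15b, Depdc5 and Nprl3. The data thus leave room for differences below 2-fold in these genes, which the test could not separate from 0. At an unadjusted p under 0.05 the members numbered 1 of 10 in deficient minus adequate (15.1% of all genes), 1 of 10 in restricted minus adequate (9.17%) and 1 of 10 in deficient minus restricted (7.44%). They numbered 0 of 10 in supplemented minus adequate (9.77%), deficient minus supplemented (5.45%), restricted minus supplemented (2.18%), the test of any difference (9.47%) and the trend (3.47%). With all libraries these counts are near the background shares, but they move when 1 library is left out. The shares of all genes under these omissions are not given here, so the counts that follow are not compared with a background. Without adequate replicate 1 they were 3 of 10 in deficient minus adequate (Eif2ak3, Ppp1r15b and Nprl2) and 3 of 10 in restricted minus adequate (Eif2ak3, Ppp1r15a and Ppp1r15b). The same omission gave 3 of 10 in the test of any difference (Eif2ak3, Ppp1r15b and Nprl2) and 1 of 10 each in supplemented minus adequate (Eif2ak3), deficient minus supplemented (Ppp1r15b) and the trend (Ppp1r15b). Without supplemented replicate 1 there were 2 of 10 in the test of any difference (Ppp1r15a and Nprl2) and 1 of 10 in supplemented minus adequate (Ppp1r15a). Without supplemented replicate 6 there was 1 of 10 in the test of any difference, in restricted minus supplemented and in the trend, and without supplemented replicate 4 there was 1 of 10 in the trend. The count in deficient minus adequate was 0 when any of 10 other libraries was left out (adequate 2 or 3, supplemented 2, 4 or 6, any restricted one, deficient 1 or 2). In restricted minus adequate it was 0 without adequate replicate 2, 2 without adequate replicate 3 or supplemented replicate 5 and 3 without restricted replicate 2, and in deficient minus restricted it was 0 without restricted replicate 2 or deficient replicate 2.

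With all libraries the median log2 fold change of the members was 0.035 in deficient minus adequate, against 0.036 for all genes, and 0.030 in restricted minus adequate, against 0.005. Single libraries set these small values: without deficient replicate 2 the first was 0.157 against 0.010, and without deficient replicate 1 it was -0.075 against 0.001. Over all omissions of 1 library the second ran from -0.019, without restricted replicate 1, to 0.082, without adequate replicate 2. In supplemented minus adequate it was 0.163 against 0.028, with 7 of 10 members above 0, and without adequate replicate 2 it was 0.069 against 0.045. Libraries of the 2 diets did not overlap for 3 members in deficient minus adequate (15.9% of all genes), for 2 in restricted minus adequate (16.6%) and for 2 in deficient minus restricted (11.1%). They overlapped for all 10 members in supplemented minus adequate, deficient minus supplemented and restricted minus supplemented, where 4.38%, 1.91% and 2.11% of all genes stood apart.

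**Figure D2:**
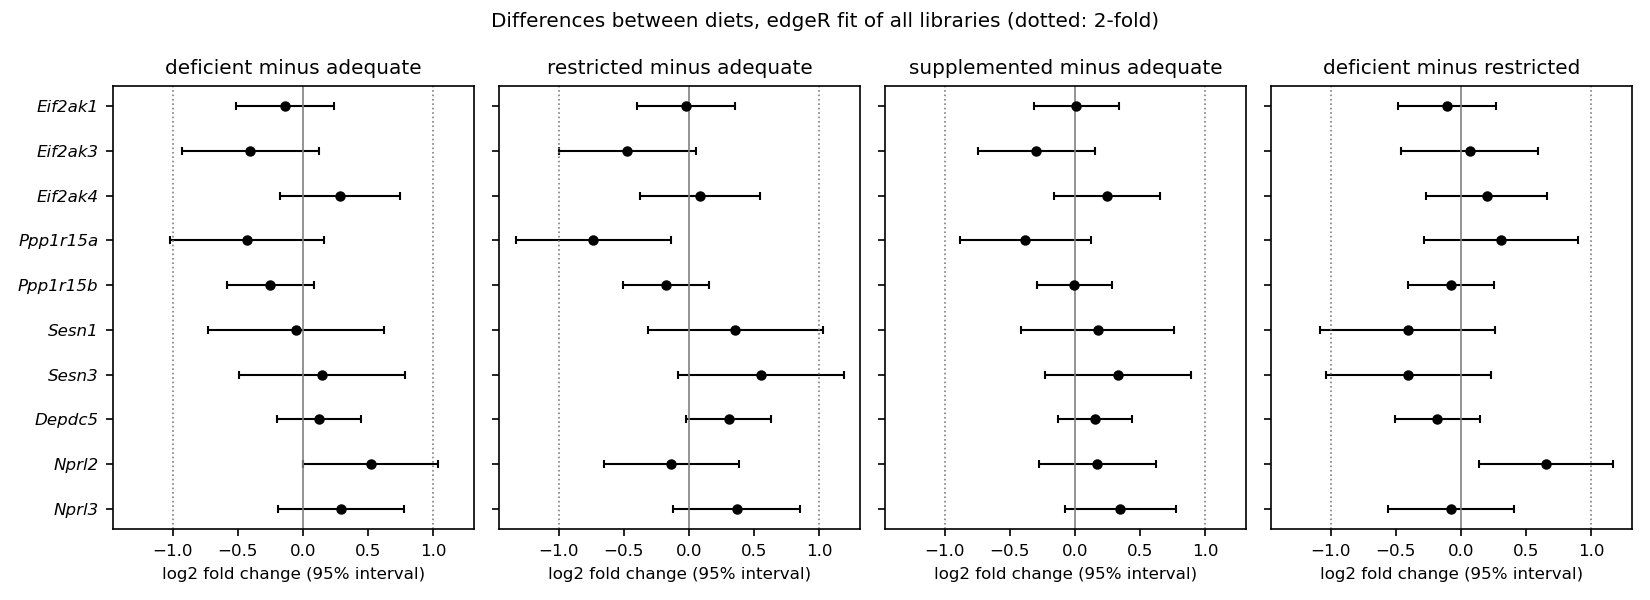
Log2 fold change of each listed gene with its 95% interval, from the edgeR fit of all 15 libraries, in 4 of the comparisons. Estimates lie between -0.74 and 0.65, and the intervals clear of 0 belong to Nprl2 and Ppp1r15a.

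The spread between libraries differed among members. Depdc5 had an SD of 0.158 in log2 CPM over the 15 libraries, and only 1.84% of all genes had a smaller one. Ppp1r15b (0.171) and Eif2ak1 (0.179) followed, with 2.91% and 3.63% of genes below them. Sesn3 (0.403) and Ppp1r15a (0.406) varied most among members, near the median of all genes, 0.432. The highest library was 2.82 times the lowest for Ppp1r15a, 2.53 times for Eif2ak3, 2.46 times for Sesn1 and 2.44 times for Sesn3. Genes of a log2 CPM between 3 and 8 had a median SD of 0.320 against 0.287 for the members.

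**Figure D3:**
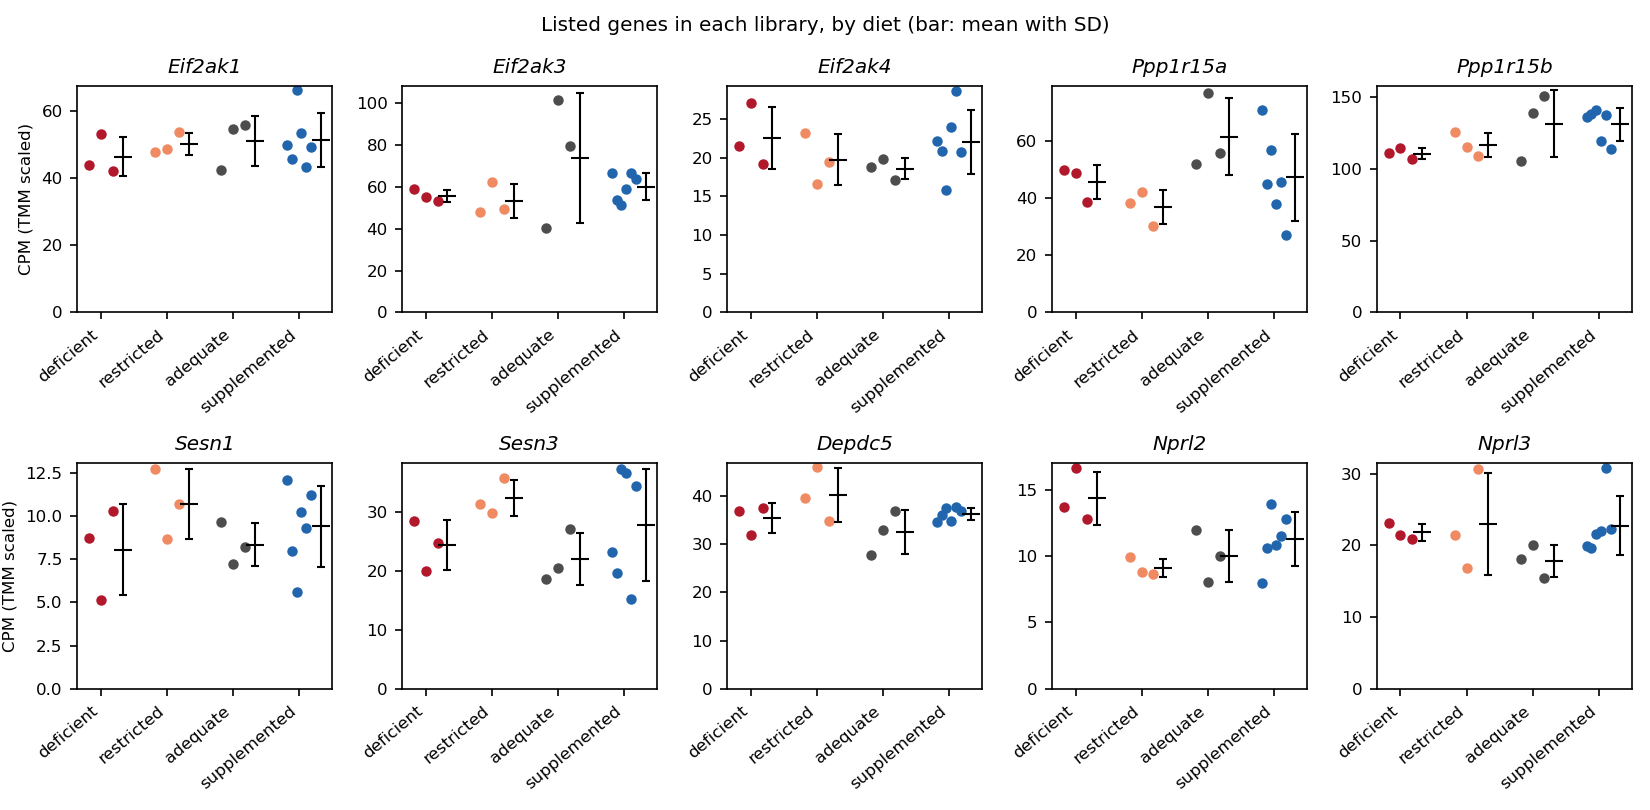
CPM after TMM scaling of each listed gene in each library, by diet from deficient to supplemented, with the mean and SD of each diet beside the points and axes starting at 0. The 3 deficient libraries lie above all restricted and adequate ones for Nprl2, and Ppp1r15a is highest in adequate replicate 2.

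Eif2ak4, whose kinase GCN2 senses amino acid shortage directly, showed no called difference between diets. It read 21.5, 27.04 and 19.2 CPM in the deficient libraries, 23.2, 16.6 and 19.4 in the restricted and 18.8, 19.9 and 17.1 in the adequate. The 6 supplemented libraries had a lowest value of 15.9, a median of 21.5 and a highest of 28.6 CPM. These ranges overlap in every pair of diets. The log2 fold change in deficient minus adequate was 0.28 with a 95% interval of -0.18 to 0.74, so a rise of more than 1.67-fold lies outside it. That estimate stayed above 0 in all 24 alternatives, from 0.13 to 0.39.

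Eif2ak3 differed most within the adequate group. Its 3 adequate libraries read 40.1, 101.4 and 79.6 CPM, a wider range than in any other diet, and the low one is adequate replicate 1. The restricted libraries read 48.0, 62.3 and 49.2 CPM, the deficient 58.9, 55.1 and 53.1, and the supplemented 51.3 to 66.7 with a median of 61.2. The estimate in restricted minus adequate was -0.47 (SE 0.248, adjusted p = 0.608). Without adequate replicate 1 it was -0.79, and without all 3 libraries that stood apart it was also -0.79, with an adjusted p of 0.053, the smallest of any member under any alternative. In deficient minus adequate the same omissions gave -0.71 and -0.68 against -0.40 with all libraries, and in supplemented minus adequate -0.61 and -0.63 against -0.30. The size of the Eif2ak3 estimates against the adequate diet thus depends on adequate replicate 1, and none passed the adjusted threshold either way.

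Eif2ak1 levels overlapped in every pair of diets. Means were 46.3 ± 5.85 CPM (SD, n = 3) in deficient and 50.0 ± 3.27 (SD, n = 3) in restricted libraries. They were 50.9 ± 7.43 (SD, n = 3) in adequate and 51.3 ± 8.05 (SD, n = 6) in supplemented ones. The exons of Eif2ak1 overlap those of Aimp2, on the opposite strand, and its deposited counts were fractional in all 15 libraries. In each library its count and that of Aimp2 add to a whole number, as 671.93 and 715.07 do in adequate replicate 1. Part of its reads were thus shared out between genes on opposite strands. The strand setting of the counting is not given in the sources used here.

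Ppp1r15a, also called GADD34, encodes the subunit that ATF4 induces late in the response to reverse eIF2alpha phosphorylation. Its level was 51.7, 76.6 and 55.8 CPM in the adequate libraries, 38.2, 42.1 and 30.3 in the restricted and 49.6, 48.5 and 38.6 in the deficient. The supplemented libraries ran from 27.1 to 70.7 CPM with a median of 45.2. All 6 libraries on less methionine lay below all 3 adequate ones, while the supplemented libraries spanned nearly the whole range. The log2 fold change was -0.74 (SE 0.280, 95% interval -1.33 to -0.14) in restricted minus adequate, with an unadjusted p of 0.019 and an adjusted p of 0.449. Adequate replicate 2, the highest library, bears on its size, since the value was -0.54 without it. In deficient minus adequate the estimate was -0.43 with an adjusted p of 0.477, and -0.24 without that library. Both comparisons use the same 3 adequate libraries. Of the 10 erythroid markers, 7 matched, and the 5 that passed the filter are summed here. They gave 167 to 241 CPM in adequate, 47.4 to 93.3 in restricted, 84.6 to 1139 in deficient and 55.6 to 305 in supplemented libraries. The sum of 1139 CPM was in deficient replicate 3, which had the lowest Ppp1r15a level of its diet, 38.6 CPM. Fibroblast markers, all 10 measured, summed to 357 to 554 CPM in adequate and 601 to 1090 in restricted libraries. Their sums were 822 to 1152 CPM in deficient and 491 to 1408 in supplemented libraries. All restricted and deficient sums thus lay above all adequate ones. Endothelial sums stood apart in the same way, and those of the other marker lists did not. The part of any marker list in the Ppp1r15a value was not tested.

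Ppp1r15b had the narrowest range of CPM relative to its level among the members, a highest value 1.43 times the lowest. It read 111, 114 and 107 CPM in deficient, 126, 115 and 109 in restricted and 105, 139 and 151 in adequate libraries, and 114 to 141 with a median of 137 in supplemented ones. Adequate replicate 1 was the lowest library of all 15. The slope per step of the methionine rank in edgeR was 0.085 log2 units (SE 0.041, unadjusted p = 0.056, adjusted p = 0.9998). That rank takes deficient, restricted, adequate and supplemented as even steps, whatever the change in dose. Leaving out adequate replicate 1 gave estimates of -0.40 in deficient minus adequate and -0.33 in restricted minus adequate, against -0.25 and -0.18 with it, and edgeR adjusted p-values of 0.291 and 0.489.

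Sesn3, a sestrin that is a known FoxO target, showed its most even group in the restricted diet. It read 31.4, 29.9 and 35.8 CPM there, 18.6, 20.6 and 27.1 in the adequate libraries and 28.5, 20.02 and 24.9 in the deficient. The supplemented libraries ran from 15.3 to 37.3 CPM with a median of 28.9. All restricted libraries thus lay above all adequate and all deficient ones, but not above the supplemented. The log2 fold change in restricted minus adequate was 0.55 (SE 0.300, adjusted p = 0.628), and in deficient minus restricted it was -0.40 with an interval of -1.04 to 0.23.

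Sesn1, a sestrin under control of p53, was the least abundant member. It read 8.72, 5.17 and 10.3 CPM in deficient, 12.7, 8.68 and 10.7 in restricted and 9.64, 7.22 and 8.18 in adequate libraries, and 5.63 to 12.1 with a median of 9.77 in supplemented ones. All 4 diets overlap. At 78 to 280 counts its interval in restricted minus adequate ran from -0.32 to 1.03.

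Nprl2, the GATOR1 subunit thought to carry its GTPase-activating arginine, gave 2 of the 3 estimates with an unadjusted p under 0.05. It read 13.7, 16.6 and 12.8 CPM in the deficient libraries, 9.90, 8.83 and 8.63 in the restricted and 11.97, 8.07 and 10.004 in the adequate. The 6 supplemented libraries ran from 7.98 to 13.9 CPM with a median of 11.2. The deficient libraries lay above all restricted and all adequate ones, and 2 supplemented libraries lay inside their range. The log2 fold change was 0.65 (SE 0.243, 95% interval 0.14 to 1.17) in deficient minus restricted, with an unadjusted p of 0.016 and an adjusted p of 0.649. It was 0.52 (SE 0.242, 95% interval 0.004 to 1.03) in deficient minus adequate, with an unadjusted p of 0.048 and an adjusted p of 0.326. Endothelial markers, all 10 measured and none at 0, summed to 667, 601 and 2669 CPM in deficient replicates 1, 2 and 3. The sums were 578 to 727 CPM in restricted, 315 to 563 in adequate and 438 to 872 in supplemented libraries. All 3 deficient sums thus lie above the adequate range, and those of deficient replicates 1 and 2 lie inside the restricted range. Nprl2 was highest in deficient replicate 2. The part of these markers in the Nprl2 value was not tested.

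The other 2 GATOR1 subunits did not share this order. Nprl3, the partner of Nprl2 in the complex, read 23.2, 21.4 and 20.9 CPM in deficient and 18.1, 20.01 and 15.5 in adequate libraries, which do not overlap, but 21.5, 16.8 and 30.7 in restricted ones. Its log2 fold change in deficient minus adequate was 0.29 with an adjusted p of 0.560. Nprl3 shares exon sequence with Mpg on the opposite strand, and its counts were fractional in 14 of 15 libraries. Depdc5, the subunit that binds the Rag GTPases, read 36.9, 31.9 and 37.5 CPM in deficient, 39.6, 46.0 and 34.8 in restricted and 27.8, 32.8 and 36.8 in adequate libraries. The supplemented libraries held it within 34.7 to 37.6 CPM. The difference between subunits in response to diet was not tested.

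The genes around the members were counted over 12 lists, 6 of which hold members themselves. In edgeR 0 genes of any list passed the adjusted threshold in any of the 8 tests, and limma-voom also called 0. DESeq2 called Lamtor3, Cited2, Sar1b and Phlda3, each in 1 or 2 tests. Of all 16001 genes DESeq2 called 588 in deficient, 131 in restricted and 137 in supplemented minus adequate. It called 9 in deficient minus restricted and 270 for any difference. Whether the lists held more DESeq2 calls than this background was not tested. Upstream, Eif2ak2, the kinase of double-stranded RNA known as PKR, completes the kinase list. It averaged 33.4 ± 4.82 CPM (SD, n = 3) on the restricted and 22.5 ± 4.40 (SD, n = 3) on the adequate diet, with an adjusted p of 0.497 for any difference. Among 7 regulators of the kinases, 1 had an unadjusted p under 0.05 in deficient minus adequate (15.1% of all genes) and 5 estimates were above 0. Impact, an inhibitor of GCN2 activation, averaged 19.04 ± 4.95 CPM (SD, n = 3) in adequate and 30.3 ± 4.33 (SD, n = 6) in supplemented libraries. The median of that list was 0.31 in deficient minus adequate, against 0.036 for all genes.

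All 5 genes of the eIF2alpha phosphatase list, 2 of them members, had estimates below 0 in deficient, in restricted and in supplemented minus adequate, with medians of -0.38, -0.29 and -0.35. At an unadjusted p under 0.05 they numbered 2, 2 and 1 of 5, where 15.1%, 9.17% and 9.77% of all genes did. Without the 3 libraries that stood apart the medians were -0.33 in both deficient and restricted minus adequate, with 1 of 5 estimates above 0 in each. In supplemented minus adequate the Ppp1r15b estimate was -0.0065 and changed sign in 7 of 24 alternatives. Deficient, restricted and supplemented minus adequate share the adequate libraries. Ppp1cb, a catalytic subunit of protein phosphatase 1, averaged 129 ± 15.2 CPM (SD, n = 3) in adequate, 90.6 ± 14.5 (SD, n = 3) in restricted, 98.9 ± 4.75 (SD, n = 3) in deficient and 100.9 ± 6.49 (SD, n = 6) in supplemented libraries, with an adjusted p of 0.450 for any difference. Of 9 subunits of eIF2 and of its exchange factor eIF2B, 8 had estimates below 0 in deficient minus adequate, with a median of -0.30. That median was -0.15 without adequate replicate 1 and 0.06 without the 3 libraries that stood apart, so its direction rests on them. The exchange factor subunit Eif2b3 averaged 7.30 ± 1.23 CPM (SD, n = 3) in restricted and 14.004 ± 0.632 (SD, n = 3) in adequate libraries.

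Downstream, 29 tested genes of the list of ATF4 and its targets had a median of -0.11 in deficient minus adequate and 11 of 29 estimates above 0. At an unadjusted p under 0.05 they numbered 1 of 29 there (15.1% of all genes) and 2 of 29 in restricted minus adequate (9.17%). Vldlr, a lipoprotein receptor induced under stress, averaged 10.2 ± 9.84 CPM (SD, n = 3) in deficient and 1.38 ± 0.498 (SD, n = 3) in restricted libraries, with an adjusted p of 0.442 for any difference. Slc38a2, an amino acid transporter, averaged 131 ± 11.5 CPM (SD, n = 3) in deficient and 187 ± 9.97 (SD, n = 3) in restricted libraries. The SD of Vldlr in the deficient group is nearly as large as its mean.

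**Figure D4:**
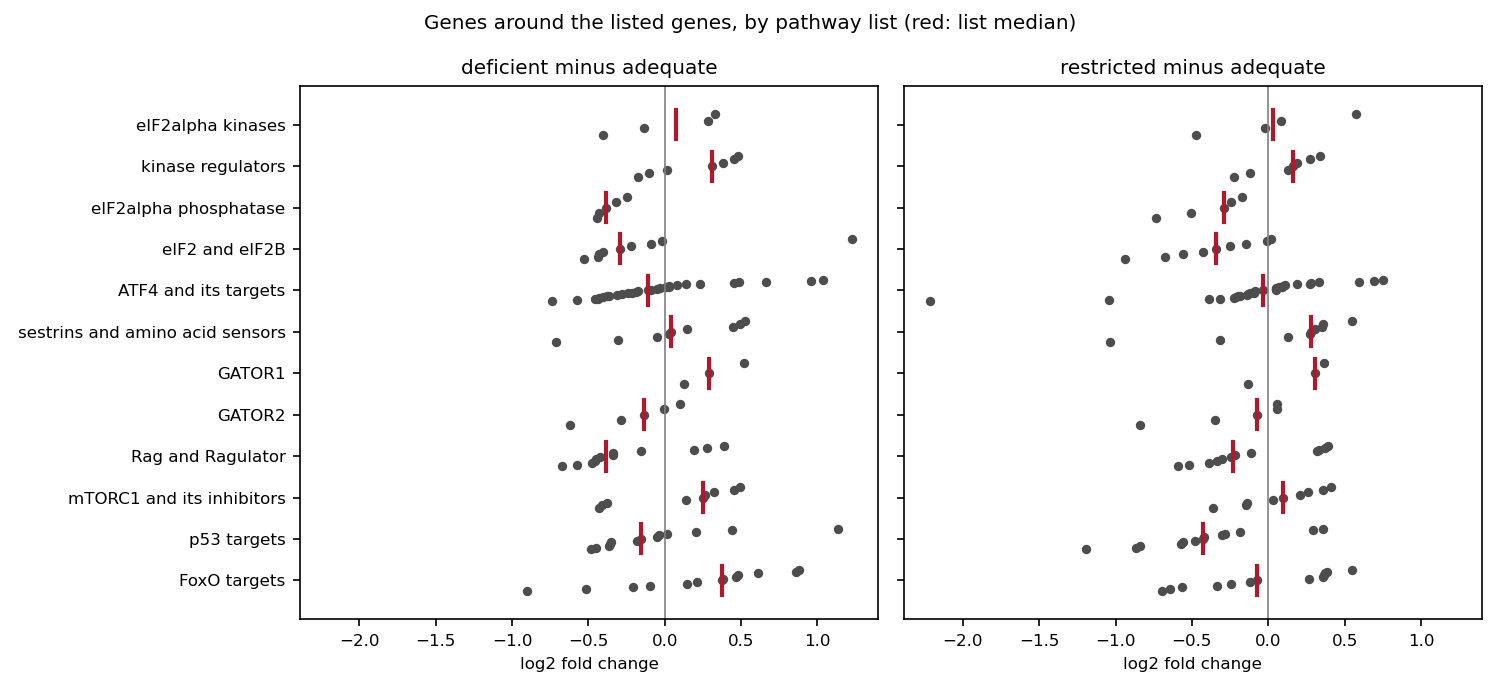
Log2 fold change of each tested gene in 12 pathway lists, in deficient minus adequate on the left and restricted minus adequate on the right, with the list median as a red bar. The phosphatase list lies wholly below 0 in both panels, with medians of -0.38 and -0.29, and ATF4 and its targets straddle 0.

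On the mTORC1 side, the 9 sestrins and amino acid sensors had a median of 0.04 in deficient minus adequate. Sar1b, a leucine sensor, averaged 40.9 ± 10.8 CPM (SD, n = 3) in adequate and 19.9 ± 4.34 (SD, n = 3) in restricted libraries, a difference that DESeq2 called and edgeR did not. Medians in the same comparison were 0.29 over the 3 GATOR1 genes, all of them members, and -0.14 over 5 GATOR2 genes. The 3 GATOR1 estimates were all above 0, though that of Depdc5 changed sign in 1 of 24 alternatives. In deficient minus restricted 1 of the 3 was above 0, with a median of -0.07.

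Of 12 genes of the Rag GTPases and their lysosomal anchor Ragulator, 4 had an unadjusted p under 0.05 in deficient minus adequate (15.1% of all genes), all lower, and the median was -0.38. Without adequate replicate 1 it was 2 of 12 and -0.18, and without the 3 libraries that stood apart 2 of 12 and -0.06. Lamtor3 of Ragulator averaged 35.6 ± 5.52 CPM (SD, n = 3) in deficient and 56.8 ± 11.5 (SD, n = 3) in adequate libraries, with an adjusted p of 0.420 for any difference in edgeR, and DESeq2 called it in deficient minus adequate. The 9 genes of mTORC1 and its inhibitors had a median of 0.25. Of 13 p53 targets, which include Sesn1, 5 had an unadjusted p under 0.05 in restricted minus adequate (9.17% of all genes), all lower, with a median of -0.42. Without adequate replicate 1 these were 2 of 13 and -0.35, and edgeR then called Zmat3, lower in restricted, which was named after its value was seen. Phlda3, a p53-induced inhibitor of Akt, averaged 50.2 ± 5.54 CPM (SD, n = 3) in restricted and 91.6 ± 11.6 (SD, n = 3) in adequate libraries, and DESeq2 called it in restricted minus adequate and for any difference. The 13 FoxO targets, which include Sesn3, had a median of 0.38 in deficient and -0.07 in restricted minus adequate, and the first was 0.08 without adequate replicate 1. Cited2 of that list averaged 56.3 ± 5.60 CPM (SD, n = 3) in deficient and 105 ± 30.6 (SD, n = 3) in adequate libraries, and DESeq2 called it in deficient minus adequate.

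Across the 15 libraries the members were also set against marker and pathway levels. Of 90 relations between a member and the mean log2 CPM of a cell type's markers, 0 had an adjusted p under 0.05 in a permutation test, and Pearson's r ran from -0.552 to 0.560. The highest was Nprl3 with the fibroblast markers, with r = 0.560 (permutation p = 0.031, adjusted p = 0.761) and rho = 0.700 (permutation p = 0.005, adjusted p = 0.415). Without the 2 libraries farthest from the median, r was 0.724. Of 45 pairs of members, 0 had an adjusted p under 0.05.

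Sesn3 gave the strongest of 30 relations to pathway lists, a family added after the data were seen. It was lower where the 13 p53 targets were higher, with r = -0.736 (permutation p = 0.002, adjusted p = 0.060) and rho = -0.779 (permutation p = 0.00089, adjusted p = 0.027). Without adequate replicate 1 and deficient replicate 2, the 2 libraries farthest from the median p53 level, r was -0.691, and with the diet means removed it was -0.718. All values share the library scaling, and only rho passed the adjusted threshold.

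**Figure D5:**
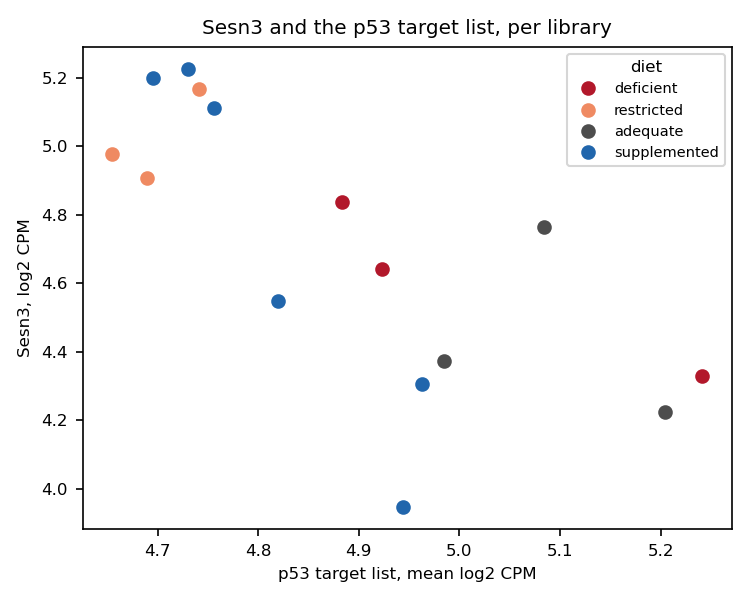
Log2 CPM of Sesn3 against the mean log2 CPM of 13 p53 targets, 1 point per library, coloured by diet. Libraries with more p53 target RNA had less Sesn3 RNA (r = -0.736 over 15 libraries), and the restricted libraries sit at the upper left.

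The genes whose log2 CPM was most like each member over the 15 libraries were sought among 9565 genes with a mean log2 CPM of at least 3. Pearson's r is given as a description. For Sesn3 these were Nipal3 (0.930) and Atp7a (0.897), for Eif2ak3 Chpf2 (0.899) and Slc6a6 (0.895), and for Ppp1r15b Nploc4 (0.860) and Scn1a (0.859). Eif2ak4 was most like Faf2 (0.852) and Noc3l (0.812), Eif2ak1 like Dclk2 (0.832) and Cog1 (0.816), and Ppp1r15a like Ehd3 (0.836) and Rabif (0.827). Sesn1 was most like Zdhhc17 (0.815) and Dnajc3 (0.805), and Depdc5 like Ccdc85c (0.792) and Ccdc141 (0.791). Nprl2 was most like 1110051M20Rik (0.824) and Tmem150a (0.776). Nprl3 was most like Col3a1 (0.789) and Col1a2 (0.760), 2 collagen genes that are also among the fibroblast markers.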

How the data were processed

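RNA was sequenced from 15 libraries of B16-F10.1 lung metastases in 4 diet groups. Per the labels' protocols, total RNA was depleted of ribosomal RNA and made into stranded libraries. Alignment and counting used Bowtie2 2.2.9 and RSEM 1.30 on build NCBIM37, and edgeR is also listed, per the submitters' processing notes. The deposited expected counts and TPM per gene are RSEM's. Neither the strand setting nor the annotation release is given in the sources used here.

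Expected counts were rounded, filtered with edgeR's filterByExpr and scaled by TMM. CPM is on that scale, and log2 CPM has a prior count of 2. Diets were compared by the quasi-likelihood test of edgeR 4.0.16 in R 4.3.3, with a mean per diet over all 15 libraries, 11 residual degrees of freedom and a biological coefficient of variation of 0.461, adjusted by Benjamini-Hochberg at 0.05. Intervals are 95%. The test was also run on counts simulated from the real means and library sizes with edgeR's own dispersions and known fold changes. That simulation held no libraries that stand apart, so it does not show how the test behaves with them. Relations used permutation tests with 100000 resamples. Alternatives were DESeq2 1.42.0, limma-voom (limma 3.58.1), other scalings, no filter, only 2 diets, an alveolar type 2 covariate, no stand-apart libraries and leaving out each library.

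The members and lists were chosen with earlier results of these data known. All members were described, with full statistics at an unadjusted p under 0.05. From each list with no call, up to 3 genes with the smallest p for any difference could be named, and from each member the 2 most alike genes. Promoters are RefSeq's in build GRCm38.p6, matched by symbol. Of the gene lists tested, 1 is not reported here.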

Additional observations from a re-analysis of the deposited data

Results flagged for a closer look

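Supplemented replicate 5 stood far above the other 5 supplemented libraries for Nprl3, at 4.95 log2 CPM, with a gap of 0.720 of the group's range. Chance flags about 1 in 20 groups. Nprl3 read 30.8 CPM there and 19.7 to 22.3 in the other 5. The same library held 1254 CPM of skeletal muscle markers and 1408 CPM of fibroblast markers, and the Mpg gene that overlaps Nprl3 read 6.69 CPM. Their part in the value was not tested.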

How the results depend on the processing

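Under all 24 alternatives for each pairwise comparison, and 23 for the test of any difference and the trend, 0 of 10 members were called. Nprl2 kept its direction in deficient minus adequate (0.38 to 0.74, adjusted p 0.215 to 0.687) and in deficient minus restricted (0.53 to 0.75, adjusted p 0.295 to 1), and Ppp1r15a in restricted minus adequate (-0.87 to -0.54, adjusted p 0.195 to 0.783). Members at an unadjusted p under 0.05 numbered 3 without adequate replicate 1 in deficient minus adequate, in restricted minus adequate and for any difference, and 1 in supplemented minus adequate, deficient minus supplemented and the trend, against 1, 1, 0, 0, 0 and 0 with all libraries. These counts were not compared with the share of all genes under the same omission. For all genes the call count depended on the tool: DESeq2 called 588 in deficient, 131 in restricted and 137 in supplemented minus adequate, 9 in deficient minus restricted and 270 for any difference, where edgeR called 1, 0, 0, 0 and 1. With log2(TPM + 1) in place of CPM, 4 relations of members to cell type markers had an adjusted p under 0.05, against 0. Scaling over protein-coding genes alone was chosen after seeing the data. Sesn1 and Nprl2 had the lowest counts among the members, 78 to 280 and 140 to 387 per library. The effect of depth on their estimates was not tested. No paired analysis was possible because the labels give no replicate numbers shared between diets: the numbers used here only name libraries in accession order.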
